A study of Mus musculus with 6 samples.

Results

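The 45 genes described here drive and mark cell division. They were taken by symbol from the 24422 genes counted in each library, and all 45 were listed and passed the filter on low counts. Of these, 20 act in G1 and S phase and 25 in G2 and mitosis. Poly-A RNA was sequenced from whole kidneys of C57BL/6 mice at postnatal day 60, all fed an iron-sufficient diet of 220 ppm. The 3 control kidneys were wild type and the 3 others carried the genotype TfR1KO;KspCre. In that genotype, exons of the transferrin receptor gene Tfrc (TfR1), which takes up iron bound to transferrin, were flanked by recombination sites and removed by a Cre recombinase. Ksp-cadherin, whose promoter drives the Cre, is made by epithelial cells of the distal nephron and collecting duct, so that the other cells of a whole kidney kept the gene. Libraries with that label are named knockouts. The comparison asks how transcripts of the cell cycle differ between these genotypes.

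Levels are CPM, the usual share of a gene in its library with the library sizes scaled by TMM, and a gene was called at an adjusted p under 0.05 in edgeR's quasi-likelihood test over the 15171 genes tested. Total counts were 18036845 to 21001341 in controls and 11501053 to 19576330 in knockouts. Rn45s, a ribosomal RNA precursor, took 2.59% of the counts of knockout 3 and 0.506% to 0.745% of those of the other 5 libraries, and its part in the results was not tested. Tfrc (chr16:32609006-32632880, mm9) was at 138, 168 and 61.9 CPM in the controls and at 214, 85.9 and 40.6 CPM in the knockouts, each given in the order of replicates 1 to 3 as in all lists that follow, and the groups overlapped (log2 fold change -0.11, SE 0.62, edgeR adjusted p = 0.911). The count covers all 19 exons and all cell types of the kidney, so it does not check the deletion or the labels. Knockout 1 lay between the controls and the other 2 knockouts on the first principal component of all genes (6.84, against -65.0 to -46.8 and 74.5 to 80.7). Control 2 held 52 counts of Xist and 3980 of Y-linked genes, whereas the other 5 libraries held 10458 to 23845 and 3 to 5, so control 2 differed from all others in sex-linked transcripts. The controls were therefore mixed in these transcripts, whereas the knockouts were alike. The labels give no sex, and the part of this difference in the results was not tested. In whole tissue, fewer cells of a type and less RNA per cell cannot be told apart.

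A dividing cell passes through G1, copies its DNA in S phase, and separates the copies in mitosis. D and E cyclins with their kinases release E2F transcription factors in G1, and E2F then switches on genes for replication origins, the Mcm helicase and nucleotide supply. Genes of mitosis are switched on later by a complex that contains B-Myb and FoxM1, and many of their promoters hold CCAAT boxes and a short element named the cell cycle gene homology region (CHR). Most tubule cells of an adult kidney are at rest, and they can re-enter the cycle after injury.

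The promoters of both groups are shown first because they differ in these short words. Promoter windows of 250 bases before and 50 after the start site were found in the RefSeq table (GRCm38.p6) for 35 of the 45 genes, 16 of S phase and 19 of mitosis. Mcm4, Tpx2, Ccnd2, Ccna2, Ccne2, Pbk, Aurkb, Ccnd1, Foxm1 and Kif20a had no entry. TTCCCGC was searched as an E2F word, and so was the variant TTCGCGC. The form TTGCCGC was counted alike, and the last form searched was TTGGCGC. The CHR word was TTTGAA or its variant TTCGAA, and the CCAAT box was CCAAT, all on both strands. Overlapping matches were counted separately, and a gene with several windows in the table was counted once, as holding a word found in any of them. The 250 bases before the start site are printed for 3 S phase and 3 mitotic genes, 5′ to 3′ on the gene's strand, with every match to any of these words in capitals. Mcm5 lies at chr8:75109259-75109508 (plus strand), Mcm6 at chr1:128359706-128359955 (minus), Uhrf1 at chr17:56303087-56303336 (plus), Cdk1 at chr10:69352913-69353162 (minus), Top2a at chr11:99024190-99024439 (minus) and Kif11 at chr19:37376132-37376381 (plus).
Mcm5: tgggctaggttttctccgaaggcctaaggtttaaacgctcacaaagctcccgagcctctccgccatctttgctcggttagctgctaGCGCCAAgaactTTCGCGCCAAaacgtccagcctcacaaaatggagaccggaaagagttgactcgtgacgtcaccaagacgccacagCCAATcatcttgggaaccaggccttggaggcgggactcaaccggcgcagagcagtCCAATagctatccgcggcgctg
Mcm6: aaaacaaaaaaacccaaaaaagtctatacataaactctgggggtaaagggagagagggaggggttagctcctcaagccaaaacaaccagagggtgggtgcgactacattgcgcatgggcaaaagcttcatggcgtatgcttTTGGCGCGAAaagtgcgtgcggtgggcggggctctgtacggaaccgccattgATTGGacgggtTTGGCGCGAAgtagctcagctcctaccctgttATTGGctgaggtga
Uhrf1: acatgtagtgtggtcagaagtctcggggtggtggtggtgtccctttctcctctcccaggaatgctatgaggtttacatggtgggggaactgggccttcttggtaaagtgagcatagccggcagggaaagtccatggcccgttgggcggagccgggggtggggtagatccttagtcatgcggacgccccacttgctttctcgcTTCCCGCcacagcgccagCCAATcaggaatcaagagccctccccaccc
Cdk1: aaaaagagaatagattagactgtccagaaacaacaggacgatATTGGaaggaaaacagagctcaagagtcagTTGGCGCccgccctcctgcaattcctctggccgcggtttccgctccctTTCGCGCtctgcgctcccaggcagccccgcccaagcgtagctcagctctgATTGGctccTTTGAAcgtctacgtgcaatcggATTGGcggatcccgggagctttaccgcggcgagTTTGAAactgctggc
Top2a: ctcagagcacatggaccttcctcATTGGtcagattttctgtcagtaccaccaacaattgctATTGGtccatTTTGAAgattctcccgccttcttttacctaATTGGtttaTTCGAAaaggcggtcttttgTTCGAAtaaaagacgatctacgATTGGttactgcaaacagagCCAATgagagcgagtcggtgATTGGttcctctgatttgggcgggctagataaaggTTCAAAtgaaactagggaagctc
Kif11: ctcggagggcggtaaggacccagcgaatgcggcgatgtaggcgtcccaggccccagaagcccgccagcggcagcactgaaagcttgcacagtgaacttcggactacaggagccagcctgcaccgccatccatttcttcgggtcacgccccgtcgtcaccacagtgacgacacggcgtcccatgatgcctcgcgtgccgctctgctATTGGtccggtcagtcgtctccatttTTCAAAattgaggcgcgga

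Mcm5 and Mcm6, which encode subunits of the replicative helicase, held 3 and 4 E2F words and 2 CCAAT boxes each before the start site, and no CHR word. The printed Uhrf1 window, 1 of 2 in the table, held 1 E2F word and 1 CCAAT box. The mitotic genes had the other makeup, with 2 CHR words and 3 CCAAT boxes in Cdk1, 4 and 6 in Top2a, and 1 and 1 in Kif11. Cdk1 also held 2 E2F words, and Top2a and Kif11 held none.

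Over the whole 300-base windows, 10 of 16 S phase genes (62.5%) and 3 of 19 mitotic genes (15.8%) held an E2F word, beside 18.1% of the 11488 tested genes with an entry and 10.9% of all 27025 genes of the table. A CHR word was found in 3 of 16 S phase genes (18.8%) and 15 of 19 mitotic genes (78.9%), against 16.5% and 21.7%. Both a CHR word and a CCAAT box were found in 15 of 19 mitotic genes and 3 of 16 S phase genes, a pair seen in 6.69% of tested genes. CCAAT boxes were common in both groups (68.8% and 89.5%, against 42% of tested genes). GC content was alike, with a mean of 60.2% in S phase genes, 59.4% in mitotic genes and 60.2% in tested genes. A match is a description of the letters and not a bound site.

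**Figure D1:**
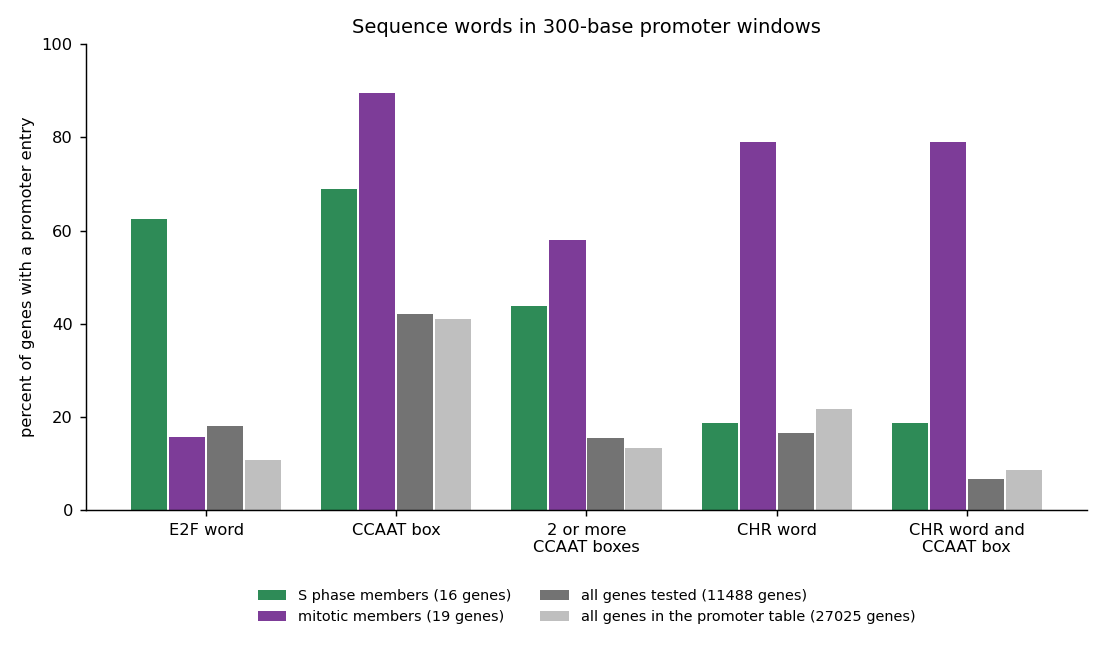
Share of genes (percent, y axis) whose 300-base RefSeq promoter window holds each word (x axis), for the S phase members, the mitotic members, all tested genes and all genes of the table. E2F words stood at 62.5% in S phase genes and CHR words at 78.9% in mitotic genes, while mitotic genes lay at 15.8% for E2F words and S phase genes at 18.8% for CHR words.

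Of the 15 mitotic genes that held both a CHR word and a CCAAT box, 8 were called and 7 were not, among the latter Kif23, Plk1 and Ube2c. Of the 4 mitotic genes that lacked this pair, 2 were called, Birc5 and Melk, which held none of the words searched. Of the 10 S phase genes with an E2F word 4 were called and of the 6 without one 0 were. Over all genes tested, 10.6% were called higher, and any link of the words to the calls was not tested. Mcm6, with 5 E2F words in its full window, was not called, and Mcm5, with 3, was.

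In the knockout kidneys 18 of the 45 genes were called higher and 0 were called lower. Across all genes tested, 10.6% were called higher and 6.64% lower. The mitotic genes made up most of the calls, with 13 of 25 higher, and 5 of 20 S phase genes were higher. The median log2 fold change was 1.81 for mitotic genes and 0.58 for S phase genes, beside 0.02 for all genes tested. All 3 knockout libraries lay above all 3 controls for 19 mitotic and 14 S phase genes, a pattern seen in 23.8% of all genes. For 1 S phase gene, Tyms, they lay below, as they did in 22.2% of all genes. Among the mitotic genes all 25 log2 fold changes were positive, from 0.14 to 2.38, and 20 were at least 2-fold. Values given in parentheses with an SE, and those beside the genes of further lists, are log2 fold changes.

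These calls depended on each control library. Without any 1 of the 3 controls, 0 of the 45 genes and 0 of all genes were called by edgeR. At an unadjusted p under 0.05, 25, 25 and 30 of the 45 were then higher without controls 1, 2 and 3, against 16.7%, 15.0% and 17.2% of all genes. Without knockout 2 only Uhrf1 was called, and without knockout 3 none of the 45 was, with 26 and 27 higher at an unadjusted p under 0.05 against 17.7% and 17.3% of all genes. Without knockout 1, 22 were called higher, against 18.0% of all genes, and Ccnd1 was called lower, against 16.4%. The mitotic median ranged from 1.54 to 2.23 and the S phase median from 0.53 to 0.62 over these 6 fits, and they were 1.70 and 0.55 without control 2. DESeq2's Wald test on the 6 libraries called 27 of the 45 genes higher, against 17.2% of all genes, and limma-voom called 17, against 7.33%. With library size alone in place of TMM 31 were called higher, against 19.7% of all genes, and the median of all genes moved to 0.29.

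**Figure D2:**
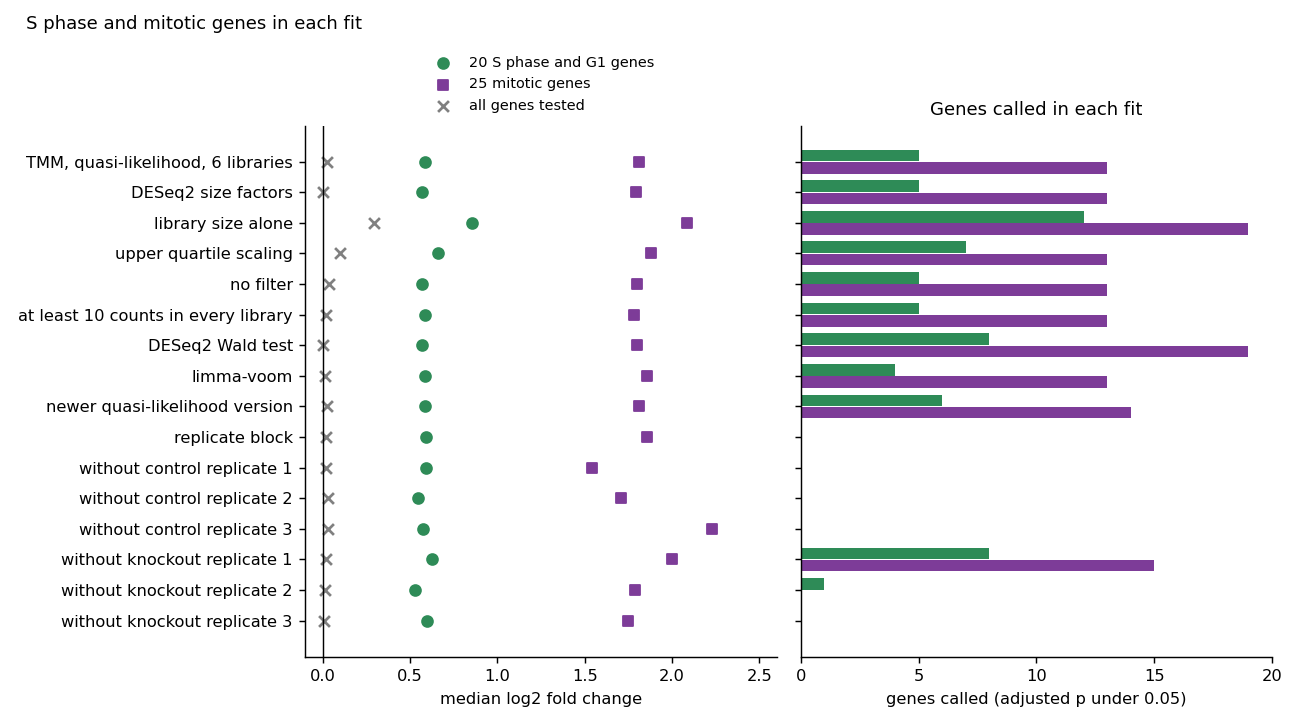
Median log2 fold change (left, x axis) of the S phase genes, the mitotic genes and all tested genes, and the number of S phase (green) and mitotic (purple) genes called (right, x axis) in each fit (y axis). The medians kept their order in all 16 fits, whereas the calls fell to 0 without any 1 control, without knockout 3 and with the replicate block.

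**Figure D3:**
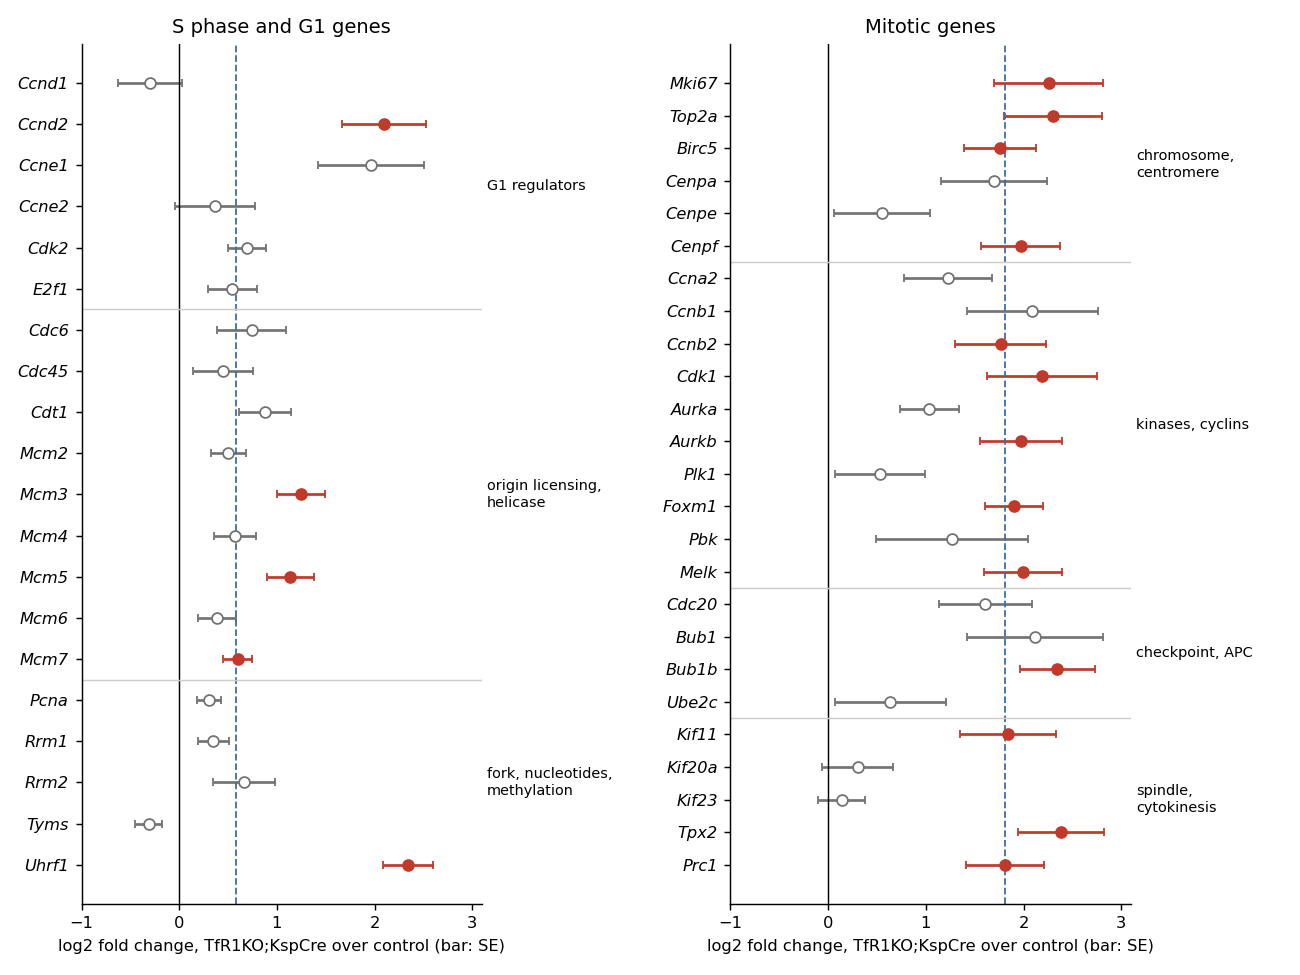
Log2 fold change of each gene, knockout over control, with its SE as a bar (x axis), grouped by role, for S phase and G1 genes (left) and mitotic genes (right). Filled red points were called and the dashed lines mark the medians of 0.58 and 1.81.

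Among the 6 regulators of G1, 1 was called higher (16.7%), beside 10.6% of all genes tested. Ccnd2 encodes cyclin D2 (chr6:127075797-127101066, mm9). It was at 30.3, 31.7 and 16.4 CPM in controls and at 53.9, 141 and 140 CPM in knockouts. Knockouts 2 and 3 were far above knockout 1, which itself exceeded every control (log2 fold change 2.10, SE 0.43, edgeR adjusted p = 0.0317). Ccnd1, the gene of cyclin D1, was at 233, 333 and 265 CPM in controls and at 342, 170 and 162 CPM in knockouts. Knockout 1 was therefore above all controls and the other 2 knockouts below them (-0.30, SE 0.33, edgeR adjusted p = 0.527). The ratio of Ccnd2 to Ccnd1, each per kilobase of transcript, was 0.0406 to 0.0854 in controls, 0.103 in knockout 1, and 0.546 and 0.567 in knockouts 2 and 3. About 21.3% of the exon bases of Ccnd1 are shared with Oraov1 on the other strand, so its count is uncertain.

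Ccne1, which encodes the cyclin E1 that starts S phase with Cdk2, was at 0.199 to 0.705 CPM in controls and 1.30 to 2.66 CPM in knockouts. Its log2 fold change of 1.96 (SE 0.54) missed the threshold, with an edgeR adjusted p of 0.0504. Its partner kinase Cdk2 was at 17.0 to 19.4 CPM in controls and 23.1 to 35.7 CPM in knockouts (0.69, SE 0.19, edgeR adjusted p = 0.0508). The groups did not overlap for either gene. E2f1, the transcription factor, had values of 4.38 to 5.75 CPM in controls and 6.28 to 8.14 CPM in knockouts and was not called (edgeR adjusted p = 0.152). Ccne2, for cyclin E2, overlapped between the groups.

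Of the 9 genes for origin licensing and the helicase, 3 were called higher (33.3%, against 10.6% of all genes tested). The 6 Mcm subunits form a ring that unwinds DNA. Mcm3 (chr1:20793055-20810359) was at 8.25, 6.58 and 5.70 CPM in controls and 13.7, 19.8 and 15.2 CPM in knockouts (log2 fold change 1.25, SE 0.24, edgeR adjusted p = 0.0305). Mcm5 (chr8:77633427-77652338), whose promoter is printed above, was at 7.76, 5.75 and 6.36 CPM in controls and 11.2, 16.7 and 15.8 CPM in knockouts (1.14, SE 0.24, edgeR adjusted p = 0.0326). For both genes the lowest knockout was above the highest control. Mcm7 (chr5:138605811-138613650) rose less, from 23.7 to 27.1 CPM in controls to 32.5 to 42.3 CPM in knockouts (0.60, SE 0.15, edgeR adjusted p = 0.0414). A second genomic copy matches 80.2% of the Mcm7 transcript at 95% identity or more, and its call was lost in limma-voom.

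The log2 fold change was 0.50 for Mcm2, 0.57 for Mcm4 and 0.38 for Mcm6, none of them called. Per kilobase of transcript, Mcm3 and Mcm5 were the lowest of the 6 subunits in controls, with means of 2.29 and 1.94 CPM per kilobase against 3.58 to 8.48 for the other 4. In knockouts they were at 5.43 and 4.26, beside 5.31 to 12.8 for the others. The sum over the 6 subunits was 25.9 to 29.3 CPM per kilobase in controls and 37.3 to 46.7 in knockouts. Cdt1 and Cdc6 load the helicase on origins. Cdt1 was at 3.82 to 5.64 CPM in controls and 7.06 to 9.52 CPM in knockouts (0.88, SE 0.26, edgeR adjusted p = 0.0603). Cdc6 (0.74, SE 0.36) was not called either, and 98.7% of its transcript has a second genomic match. Cdc45, a helicase cofactor, overlapped between the groups.

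Uhrf1 had the largest fold change of the S phase genes. Its protein carries DNA methylation onto the newly copied strand. The gene (chr17:56442744-56462909) was at 2.98, 2.41 and 3.30 CPM in controls and 12.4, 14.0 and 17.8 CPM in knockouts (2.34, SE 0.26, edgeR adjusted p = 0.0271). It was the single gene of the 45 still called without knockout 2, with an edgeR adjusted p of 0.0482. A second genomic match covers 71.8% of its transcript. The other 4 genes of forks and nucleotide supply were not called. Pcna, the sliding clamp, was at 51.7 to 54.2 CPM in controls and 58.4 to 71.1 CPM in knockouts (0.30, SE 0.13, edgeR adjusted p = 0.122), and 82.8% of its transcript has a second match. Rrm1 and Rrm2, the subunits of ribonucleotide reductase, had log2 fold changes of 0.35 and 0.66. Tyms, thymidylate synthase, was at 35.3 to 44.0 CPM in controls and 29.2 to 32.0 CPM in knockouts (-0.31, SE 0.14, edgeR adjusted p = 0.145).

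**Figure D4:**
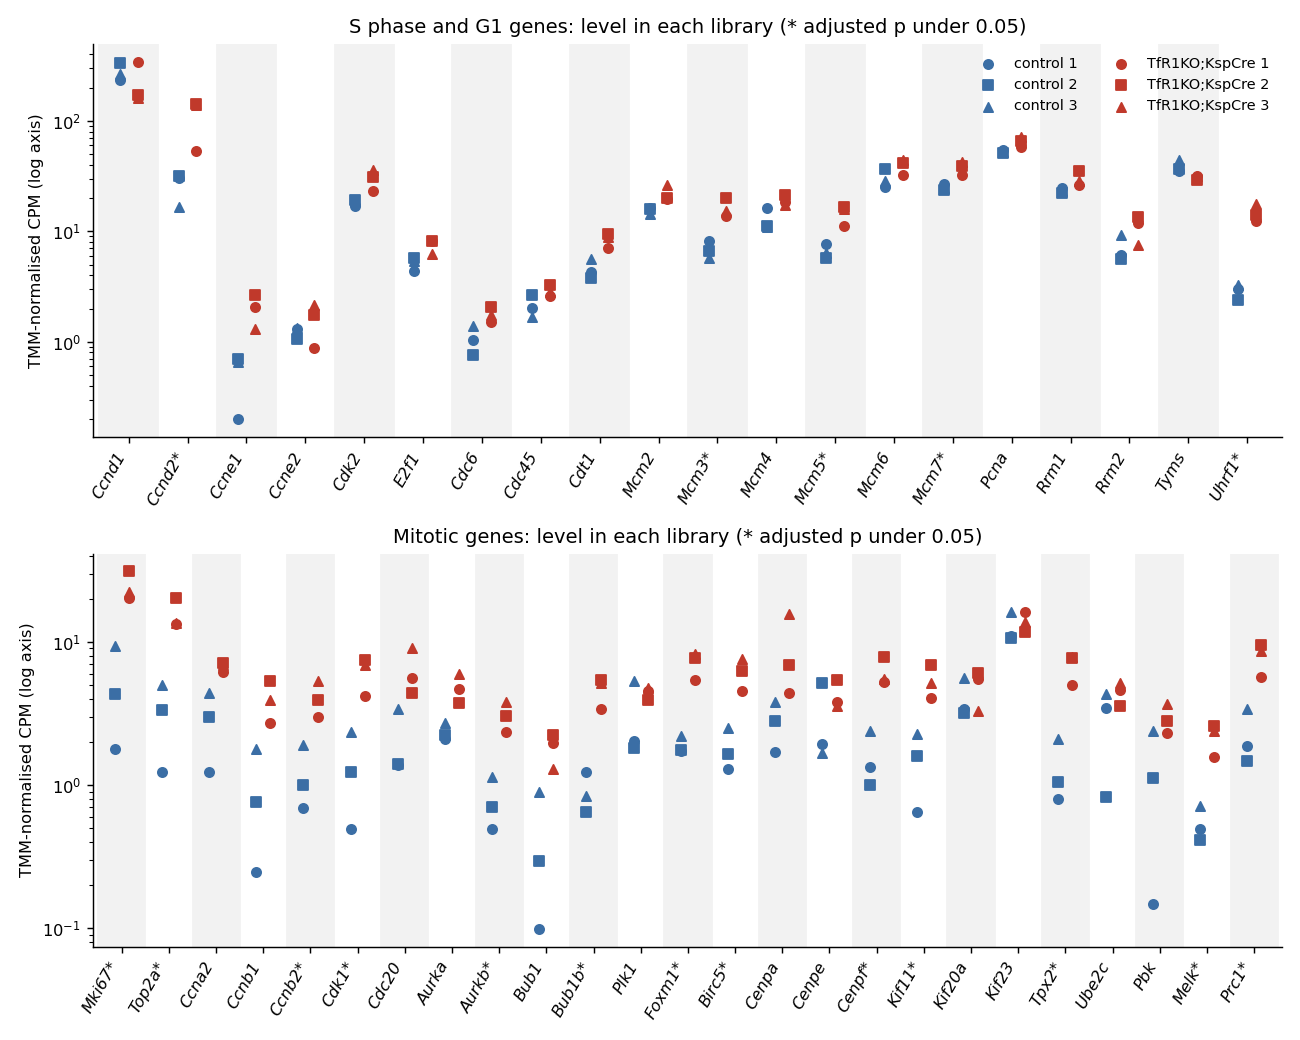
TMM-normalised CPM (y axis, log axis) of each of the 45 genes (x axis) in the 3 controls (blue) and the 3 knockouts (red), with 1 symbol per library number and an asterisk on the 18 genes called higher. Control 3 was the highest control for 23 of the 25 mitotic genes in the lower panel.

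The mitotic genes were low in control kidneys, with 863, 911 and 1481 counts in all over the 25 genes in controls and 2867, 3659 and 2348 in knockouts. Relative to the raw library totals this was 41.1, 45.6 and 82.1 CPM in controls and 146, 206 and 204 CPM in knockouts. Control 3 was the highest control for 23 of the 25 genes and control 1 the lowest for 16. Knockout 1 was the lowest knockout for 17 of the 25, and it was still above all controls for 20. In 7 of the 45 genes, namely Ccne1, Ccnb1, Cdk1, Aurkb, Bub1, Pbk and Melk, fewer than 3 controls but all knockouts reached 0.532 CPM, the level the filter asks of 3 libraries. These genes passed the filter only with the help of their knockout values, and Cdk1, Aurkb and Melk among them were called.

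Of the 6 genes for chromosomes and centromeres, 4 were called higher (66.7%, against 10.6% of all genes tested). Mki67 encodes Ki-67, a coat of mitotic chromosomes that is used as a marker of cycling cells (chr7:142881471-142908062). It was at 1.79, 4.35 and 9.36 CPM in controls and 20.3, 31.1 and 22.4 CPM in knockouts, or 5.16 ± 3.85 and 24.6 ± 5.72 CPM (SD, n = 3 each). Top2a, the topoisomerase that untangles copied DNA (chr11:98854257-98885503), was at 1.24, 3.35 and 5.04 CPM in controls and 13.4, 20.3 and 13.5 CPM in knockouts. Both ranged several-fold among controls, and the highest control was still below the lowest knockout. Their log2 fold changes were 2.26 (SE 0.56, edgeR adjusted p = 0.0405) for Mki67 and 2.30 (SE 0.50, edgeR adjusted p = 0.0331) for Top2a.

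Birc5, or survivin, a member of the chromosomal passenger complex, was at 1.29 to 2.52 CPM in controls and 4.56 to 7.58 CPM in knockouts (1.76, SE 0.37). Cenpf, a kinetochore protein, was at 0.998 to 2.40 CPM in controls and 5.25 to 7.82 CPM in knockouts (1.97, SE 0.41). Both were called. Cenpa, the histone variant of centromeres, was at 1.69, 2.82 and 3.78 CPM in controls and 4.41, 6.92 and 15.7 CPM in knockouts. The high value of knockout 3 stood apart, and Cenpa was not called (1.70, SE 0.54, edgeR adjusted p = 0.0688). Cenpe, a kinetochore motor, overlapped between the groups, with control 2 at 5.17 CPM and the other controls at 1.94 and 1.68 CPM.

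Of the 10 cyclins, kinases and regulators of mitotic entry, 5 were called higher (50%, against 10.6% of all genes tested). Cdk1, the kinase that drives entry into mitosis, was at 0.497, 1.23 and 2.34 CPM in controls and 4.17, 7.47 and 6.89 CPM in knockouts (log2 fold change 2.19, SE 0.57, edgeR adjusted p = 0.0442). Ccnb2, for its partner cyclin B2, was at 0.696, 0.998 and 1.92 CPM in controls and 2.99, 3.96 and 5.36 CPM in knockouts (1.77, SE 0.46, edgeR adjusted p = 0.0453). Kinase and cyclin thus had the same order among controls, lowest in control 1 and highest in control 3. Ccnb1, for cyclin B1, had a larger log2 fold change (2.09) with a larger SE (0.67) and was not called. It has 5 further genomic matches that cover 76.4% of its transcript. Ccna2, for cyclin A2, was at 1.24 to 4.38 CPM in controls and 6.13 to 7.12 CPM in knockouts (1.23, SE 0.45, edgeR adjusted p = 0.0937).

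Foxm1, the transcription factor of mitotic genes, varied little within the groups. It was at 1.74, 1.76 and 2.22 CPM in controls and 5.40, 7.77 and 8.27 CPM in knockouts (1.90, SE 0.30, edgeR adjusted p = 0.0277). Aurkb, the kinase of the chromosomal passenger complex, was at 0.497 to 1.14 CPM in controls and 2.35 to 3.83 CPM in knockouts (1.97, SE 0.42, edgeR adjusted p = 0.0326). The spindle-pole kinase Aurka had a smaller log2 fold change, 1.04 with an SE of 0.30, and an edgeR adjusted p of 0.0562. Melk, a kinase of cycling cells, was called (2.00, SE 0.40), and Pbk, another, was not (1.27, SE 0.78). Plk1, polo-like kinase 1, was at 2.04, 1.82 and 5.34 CPM in controls and 4.56, 3.96 and 4.74 CPM in knockouts. Control 3 exceeded all knockouts there, and the log2 fold change was 0.53 (SE 0.46, edgeR adjusted p = 0.426) and 1.19 without control 3.

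Of the 4 genes of the spindle checkpoint and the anaphase-promoting complex, 1 was called higher (25%, against 10.6% of all genes tested). Bub1b encodes BubR1, which holds anaphase back until chromosomes are attached. It was at 1.24, 0.646 and 0.840 CPM in controls and 3.38, 5.46 and 5.20 CPM in knockouts (2.35, SE 0.39, edgeR adjusted p = 0.0277). Unlike most mitotic genes it was highest in control 1 among the controls. Bub1, its partner in the checkpoint, had only 2, 5 and 15 counts in controls and 40, 45 and 17 in knockouts (2.11, SE 0.70, edgeR adjusted p = 0.0730). Cdc20, the activator of the complex, was at 1.39 to 3.42 CPM in controls and 4.41 to 9.03 CPM in knockouts (1.61, SE 0.48, edgeR adjusted p = 0.0594). Ube2c, its ubiquitin-conjugating enzyme, overlapped between the groups (0.64, SE 0.56), and it shares 22.8% of its exon bases with Tnnc2.

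Of the 5 genes of the spindle and cytokinesis, 3 were called higher (60%, against 10.6% of all genes tested). Tpx2, which nucleates spindle microtubules and activates Aurora A (chr2:152673700-152721057), had the largest fold change of the 45 genes. It was at 0.796, 1.06 and 2.10 CPM in controls and 5.0, 7.77 and 7.81 CPM in knockouts (2.38, SE 0.44, edgeR adjusted p = 0.0300). Kif11, the motor that pushes spindle poles apart, was at 0.646 to 2.28 CPM in controls and 4.07 to 6.92 CPM in knockouts (1.84, SE 0.49, edgeR adjusted p = 0.0470). Prc1, which bundles microtubules of the midzone, was at 1.47 to 3.42 CPM in controls and 5.69 to 9.47 CPM in knockouts (1.81, SE 0.40, edgeR adjusted p = 0.0343).

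The kinesins of cytokinesis, Kif23 and Kif20a, did not follow them. Kif23 was at 10.7 to 16.3 CPM in controls and 16.2, 11.7 and 13.9 CPM in knockouts, so all knockouts lay within the range of the controls (0.14, SE 0.24, edgeR adjusted p = 0.698). Per kilobase it was the highest of the 25 mitotic genes in controls, at a mean of 3.70 CPM per kilobase, with the others at 0.126 to 2.04. Kif20a was at 3.38, 3.17 and 5.58 CPM in controls and 5.49, 6.11 and 3.29 CPM in knockouts (0.30, SE 0.36), and 32.3% of its exon bases overlap Cdc23.

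The wider machinery was read from 3 further lists that hold none of the 45 genes. Of 50 other S phase genes, 13 were called higher and 1 lower, with a median of 0.51. Of 71 tested of 72 other mitotic genes, 28 were higher and 1 lower, with a median of 1.28. Of 24 inhibitors of the cycle and other G1 genes, 7 were higher and 1 lower, with a median of 0.24. The 3 lists together had 48 of 145 called higher (33.1%), beside 10.6% of all genes tested, and 3 called lower, beside 6.64%. With at least 10 counts required in every library, 36 genes of these lists were called in either direction instead of 51. Of all genes tested, 16.6% were called there instead of 17.2%.

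The largest S phase rise of the wider list was that of Clspn (2.47), a replication checkpoint adaptor, followed by E2f8 (2.41), an E2F family repressor, and Exo1 (2.04), an exonuclease. Each of these genes reached the filter level in at most 1 control and in all 3 knockouts, so it passed the filter only through the group where it was high. Gmnn (-0.72), the inhibitor of Cdt1, and Mcm10 (-0.55) were not called. The largest mitotic rises were those of Psrc1 (4.38), Kif18b (2.55) and Kif2c (2.52), which act on spindle microtubules, and they too reached the filter level in at most 1 control and in all 3 knockouts. Psrc1 had 2, 3 and 12 counts in controls and 186, 133 and 64 in knockouts. Cit, citron kinase, which acts in cytokinesis, was the single gene called lower (-1.04, SE 0.27). Spc25 (-0.79) overlapped between the groups, and so did Kif20b (-1.11), for which control 2 had 484 counts and the other libraries 49 to 122.

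Some genes that hold the cycle back were called higher too. Cdkn1a, or p21, an inhibitor of cyclin-dependent kinases and a p53 target, was at 19.2, 8.16 and 11.8 CPM in controls and 155, 87.2 and 99.5 CPM in knockouts (3.12, SE 0.38, edgeR adjusted p = 0.0271). Knockout 1 was the highest of the 6 libraries. Cdkn2a, which encodes p16 and p19ARF, had 0 counts in all 3 controls and 20, 111 and 16 counts in knockouts, and was at least 46.4-fold higher than the floor of 3 counts over the control group, or at least 19.8-fold without knockout 2. It reached the filter level in 0 controls and all 3 knockouts, so it passed the filter only through the group where it was high. Pkmyt1, a kinase that inhibits Cdk1, was called higher (1.44, SE 0.35). Rbl2, or p130, a pocket protein of resting cells, fell from 80.3 to 100.4 CPM in controls to 49.1 to 62.3 CPM in knockouts (-0.71, SE 0.15, edgeR adjusted p = 0.0327). Tob1 (-0.58) and Ccnd3 (-0.35) were not called.

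Markers of other cell types were read in the same libraries. Over all genes tested, 10.6% were called higher. Of 10 macrophage markers 9 were called higher, and their summed level was 197 to 222 CPM in controls and 599.5, 2159 and 813 CPM in knockouts. Csf1r was the marker not called. Of 10 lymphocyte markers 4 were higher, with 9.16 to 12.9 CPM in controls and 28.9, 89.9 and 31.5 CPM in knockouts. Of 10 fibroblast markers 5 were higher, with 417 to 814 CPM in controls and 1269, 4699 and 5127 CPM in knockouts. Of 10 markers of injured tubules 8 were higher, with 1279 to 3288 CPM in controls and 4815 to 8417 CPM in knockouts. Spp1, which was not called (edgeR adjusted p = 0.0718), made up 74.7% to 92.2% of that sum, and the other 9 summed to 249 to 271 CPM in controls and 777 to 1376 CPM in knockouts. Of 8 endothelial markers 1 was higher, Egfl7, or 12.5%, near the share of all genes. The median log2 fold change of these markers was 0.10, with 3 of the 8 negative. Their sum was 467 to 823 CPM in controls and 778 to 894 CPM in knockouts. No marker of these 5 lists was at 0 in every library.

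Of 10 proximal tubule markers 7 were called lower, beside 6.64% of all genes tested. Their sum was 16734 to 45949 CPM in controls and 2247 to 7348 CPM in knockouts. Kap alone was at 6177, 31266 and 11957 CPM in controls, highest in control 2, the library that differed in sex-linked transcripts, and at 102 to 1538 CPM in knockouts. The other 9 summed to 10557 to 14683 CPM in controls and 1921 to 5810 CPM in knockouts. Of 8 markers of the thick ascending limb 0 were called (2 at an unadjusted p under 0.05), and of 10 of the distal tubule and collecting duct 1 was lower, Pvalb. The thick ascending limb sum was 5542 to 12104 CPM in controls and 7190, 983 and 1371 CPM in knockouts. The distal and collecting duct sum was 3013 to 4083 CPM in controls and 3915, 2115 and 805 CPM in knockouts. For both lists knockout 1 lay within the range of the controls, and knockouts 2 and 3 lay below it. The 4 haemoglobin genes searched were listed at 0 in all libraries, so the red cell list held only 3 tested genes, none called (1 at an unadjusted p under 0.05). The part of any of these cell types in the levels of the 45 genes was not tested.

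The order of the knockouts differed between the lists. On the log2(CPM + 0.1) scale, relative to the control mean, the mean over the mitotic genes was 1.39, 1.75 and 1.76 in knockouts 1 to 3, and over the S phase genes 0.57, 0.87 and 0.76. Macrophage markers were at 1.78, 3.65 and 2.23, and lymphocyte markers at 1.23, 3.02 and 1.47, both highest in knockout 2. Fibroblast markers were at 0.78, 2.90 and 2.82. Thick ascending limb markers were at -0.15, -2.38 and -1.77, and distal and collecting duct markers at 0.09, -1.38 and -1.78. Knockout 1 was thus below the mean of knockouts 2 and 3 by a difference of -0.37 for mitotic genes, -2.08 for fibroblast markers, -1.16 for macrophage markers and -0.56 for markers of injured tubules. These differences describe 3 libraries and carry no test. The controls differed too, with the mitotic genes at -0.54, -0.12 and 0.65 in controls 1 to 3 and the S phase genes at -0.02, 0.00 and 0.03.

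**Figure D5:**
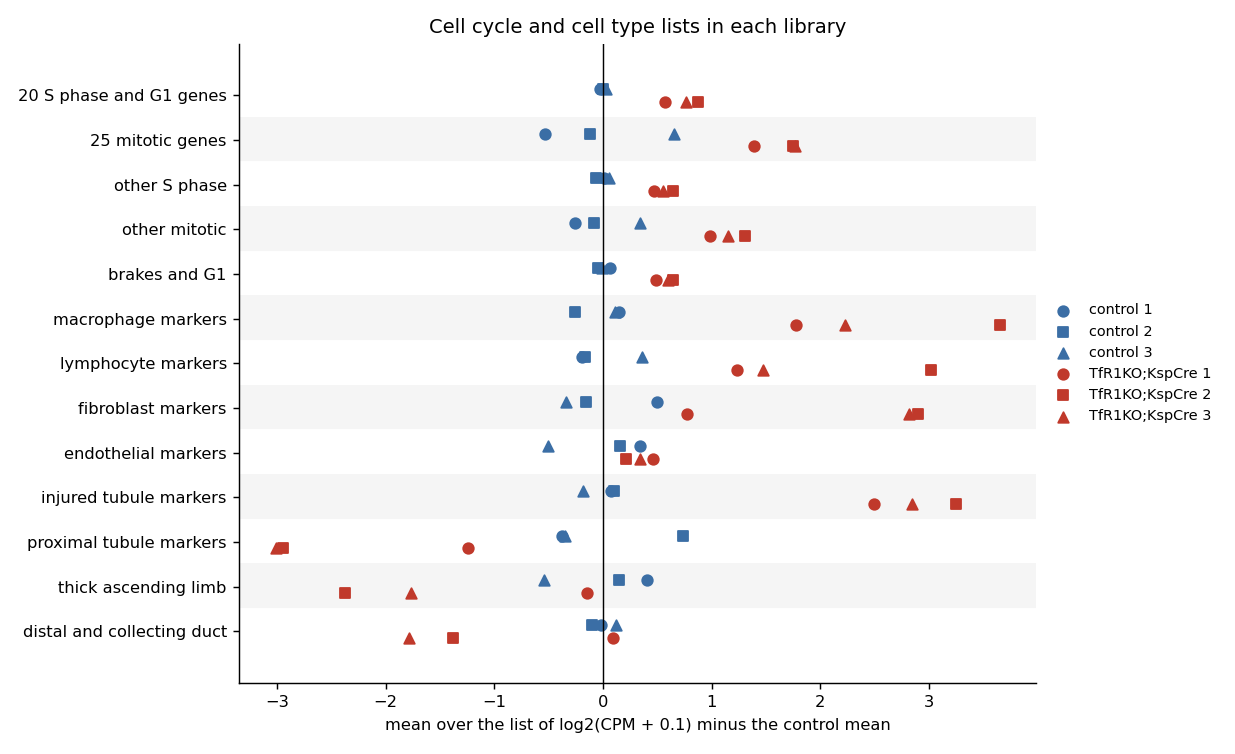
Mean over each list (y axis) of log2(CPM + 0.1) minus the mean of the controls (x axis), with 1 point per library, controls in blue and knockouts in red. Mitotic genes spread from -0.54 to 0.65 among controls and lay at 1.39 to 1.76 in knockouts, and knockout 2 was highest for macrophage and lymphocyte markers.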

How the data were processed

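Per the labels and the methods of the study, the authors prepared poly-A libraries with Illumina TruSeq kits, processed reads with CASAVA 1.8.2 and Trimmomatic, aligned them to mm9 with TopHat2 2.0.11 and obtained gene counts with HTSeq. Raw, unnormalized counts were deposited, in 1 table per group. The annotation and strand setting are not given in the sources used here, so overlapping genes and genes with near-identical copies are uncertain. Groups and replicate numbers came from the sample titles, and nothing ties the replicate numbers together. Correlations of same-numbered deviations were -0.143, 0.0247 and 0.216, so the numbers were not treated as pairs. Replicates differed by 52.9 to 125 chi-square units per degree of freedom and each counted as 1 sample.

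Counts were filtered with filterByExpr (minimum count 10, minimum total 15), scaled by TMM and tested between genotypes with edgeR 4.0.16 (quasi-likelihood, legacy version, two-sided) in R 4.3.3, without covariates, with Benjamini-Hochberg adjustment over 15171 genes. DESeq2 1.42.0 and limma 3.58.1 were alternatives, beside other scalings, filters, an adjusted p under 0.10, a replicate block and the omission of each library. On simulated data for this comparison, 138 of 194 tested genes changed by 2 on the log2 scale were called, with 0 in the wrong direction and 12 unchanged genes called. The members and lists were chosen with earlier results of these data known. All members were named, and of each further list the 3 largest and 3 smallest fold changes; markers were named as needed, and 1 gene under this rule is not reported here. Coordinates and lengths came from GENCODE M1 (mm9), second matches from minimap2 2.31 and promoters from RefSeq (GRCm38.p6). The figures were drawn with matplotlib 3.10.9. Precision is limited by 3 samples per group. The edgeR p-values set the difference between the groups against the variation between these samples, which was estimated with information from all genes tested.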

Additional observations from a re-analysis of the deposited data

How the results depend on the processing

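Over 15 alternative fits none of the 45 fold changes changed sign, and the mitotic median stayed above the S phase median in each. Library size alone gave 31 members called (12 S phase) and an S phase median of 0.85, with the median of all genes at 0.29 and 81.8% of all calls higher against 61.4% with TMM. DESeq2's Wald test called 4882 genes and 8 S phase members, and an adjusted p under 0.10 gave 5034 genes, 28 members and 9 S phase members. Of the 18 members called, 17 were shared with limma-voom (Mcm7 lost) and 17 with at least 10 counts in every library (Melk lost, as 1 of the 5 members not tested there). With the replicate block, 0 genes were called in all, and so 0 members, 0 S phase, 0 mitotic and 0 other cell cycle genes, although 5432 genes and 28 members had an unadjusted p under 0.05; the smallest adjusted p was 0.0713. Leaving out 1 library gave 0 to 5332 genes, 0 to 23 members, 0 to 8 S phase members, 0 to 15 mitotic members and 0 to 65 other cell cycle genes, with a mitotic median of 1.54 to 2.23. The cause of the lost calls was not tested. Kif20b ranged from -1.61 to 0.90 over the fits without 1 library, positive without control 2. Tfrc turned to 0.14 with library size alone and ranged from -0.96 to 0.29 over the fits without 1 library. Bub1, Ccne1 and Pbk, none called, had under 5 counts in control 1.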
